A study of Bos taurus with 12 samples.

Results

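Interferons act on a cell through paired receptor chains that bind JAK kinases, and the kinases phosphorylate STAT transcription factors. In cattle, the elongating conceptus secretes interferon tau (IFNT), a type I interferon, which binds the receptor pair IFNAR1 and IFNAR2 on endometrial cells and leads to the induction of interferon stimulated genes (ISG). The transcript levels of 9 genes of this machinery were measured in bovine endometrium collected on D15 of the estrous cycle, the time of the cycle at which a conceptus would be signalling. They are the type I receptor chains IFNAR1 and IFNAR2, the chains of the interferon gamma receptor IFNGR1 and IFNGR2, the kinases JAK1, JAK2 and TYK2, and the transcription factors STAT2 and STAT3. The genes were taken by symbol from the array annotation, among 17658 genes with a symbol, and each was represented by 1 transcript.

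The arrays came from 4 old females (OF, 13 to 14 years, nulliparous), 4 young females (YF, 4 to 5 years, primiparous) and 4 contemporary cows, whose age, parity and origin are not given in the sources used here. The OF and YF were Holstein clones made from the cells of 1 donor cow, so that they share a nuclear genome, and age and parity cannot be told apart between them. All of them had a synchronised cycle, and the tissue was a uterine biopsy, from the horn on the side of the corpus luteum for OF and YF. Contemporary cow 1111 was left out of the comparisons because the labels exclude it, which leaves 3 contemporary cows, and its values are given where they are of use. Levels are log2 of the processed spot intensity minus the 75th percentile of the array, so that 0 is that percentile, and a difference of 1 is a doubling. Different probes are not comparable in level, so each gene is compared with itself across animals.

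The 75th percentile of the intensity ranged from 967.5 to 1596.7 over the 12 arrays, with 71.6% to 74.9% of its probes well above background on each and 0 saturated. The arrays lay on 2 slides, and OF 0245, YF 1070, YF 1072 and contemporary cow 1111 shared slide 1. The epithelial markers EPCAM, CDH1, KRT8, KRT18, KRT19 and CLDN4, the gland factor FOXA2 and the stromal markers PDGFRA, VIM, DCN, LUM and COL1A1 were well above background on all 12 arrays. Smooth muscle transcripts differed between the biopsies: the 8 smooth muscle genes measured, expressed relative to their mean over 11 arrays, averaged 4.04 in OF 2258 and 2.45 in OF 0234, and between -1.52 and 0.05 in the other 9. In OF 2258 the 6 epithelial genes averaged -1.88, the lowest of the 11 arrays. In bulk tissue, fewer cells of a type and less RNA per cell cannot be told apart.

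Each transcript was read by 2 different probe sequences of 60 bases. The probes of JAK1 and TYK2 are shown because their 2 probes did not move together, as described further on. In both genes 1 probe holds AATAAA, the usual polyadenylation signal, printed in capitals, and the other does not. The letters run 5′ to 3′ as the array files give them, 30 bases of each probe, and whether a probe lies in a coding exon or in the 3′ untranslated part was not analysed here.
JAK1 probe 1, bases 29 to 58: actctttatacaAATAAAtatatggagcct
JAK1 probe 2, bases 16 to 45: gcttccctaaacagtataccctttaatcag
TYK2 probe 1, bases 16 to 45: aagattgccagtttcacccttttctcactg
TYK2 probe 2, bases 31 to 60: atatgcaaacaagtgcttAATAAAcatttg
Over the whole array, 7.97% of the different probe sequences hold AATAAA and 3.15% hold TTTATT, its reverse complement, which none of the probes of the 9 genes holds. JAK1 (ENSBTAT00000004101) lies at chr3:80861479-80915019 and TYK2 (ENSBTAT00000015532) at chr7:16103271-16132860 of assembly UMD3.1.

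None of the 9 genes was called between OF and YF, and in each of the 8 that could be tested the 2 groups overlapped. Over all transcripts, limma called 0 of 19755 at an adjusted p of 0.05 (0.0%), with 478 (2.42%) at an unadjusted p of 0.05, and the groups did not overlap for 1.53% of them. The fold change rank ordering statistics (FCROS), which the methods of the study name, called 1300 of 26323 transcripts (4.94%) and 0 of the 9 genes. The 8 differences ranged from -0.34 to 0.29 on the log2 scale, 4 higher and 4 lower in OF, with a median of -0.04 against 0.01 over all transcripts tested. Their adjusted p in limma was 0.999 for each. The width of the intervals sets what could be seen: the 95% intervals of the 8 differences lay between -0.92 and 0.84. Within slide 2 (3 OF and 2 YF) the 8 differences ranged from -0.30 in JAK1 to 0.59 in IFNAR1, and within slide 1, where OF 0245 was the only OF beside 2 YF, from -0.77 in JAK1 to 0.00 in STAT3.

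**Figure D1:**
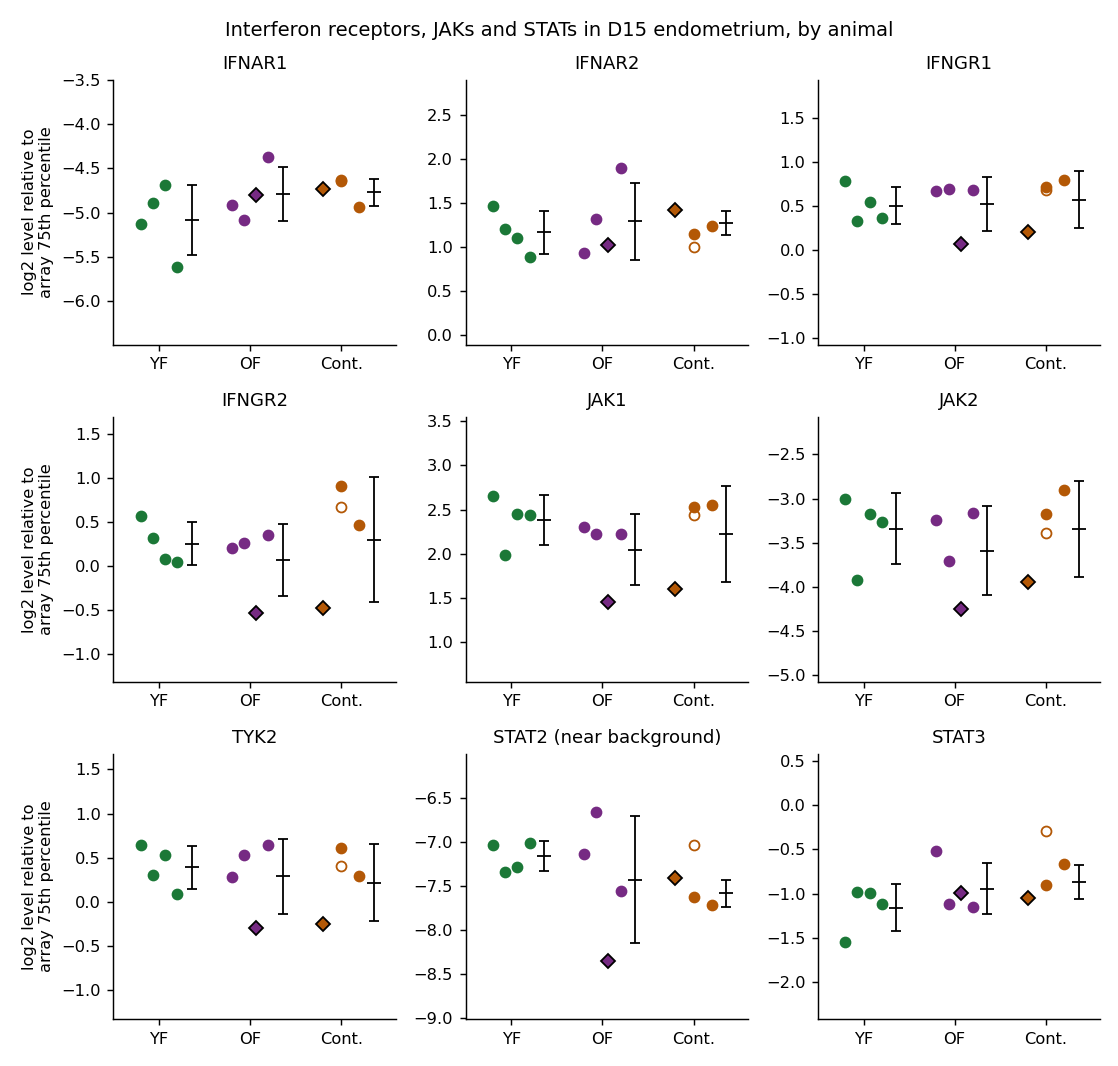
Log2 level relative to the array's 75th percentile (vertical axis, a span of 3 in every panel) in YF, OF and contemporary cows (Cont.), 1 point per animal, with the mean and SD of each group to the right of its points. Diamonds with a black edge are OF 0245 and contemporary cow 1068, the open circle is contemporary cow 1111, which is not in the mean, and in IFNGR1, IFNGR2, JAK1, JAK2 and TYK2 both diamonds lie below the other 9 arrays compared.

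The type I receptor chains did not separate OF from YF. IFNAR1 (ENSBTAT00000029080, chr1:1467704-1496151), the chain that binds TYK2, had levels of -5.13, -4.89, -4.69 and -5.62 in YF 1069, 1070, 1072 and 1127. It had levels of -4.91, -5.08, -4.80 and -4.37 in OF 0233, 0234, 0245 and 2258. The lowest animal was a YF and the highest an OF, and the other 6 were interleaved. The OF averaged -4.79 ± 0.30 (SD, n = 4) while the YF averaged -5.08 ± 0.40 (SD, n = 4), which is a difference of 0.29 (SE 0.24, 95% interval -0.25 to 0.84, limma unadjusted p = 0.252, exact two-sided permutation p = 0.343). It was 0.11 without YF 1127 and 0.15 without OF 2258. With 4 animals against 4, the smallest p that the exact test can give is 0.0286.

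IFNAR2 (ENSBTAT00000020239, chr1:1593295-1627137), the chain with the longer signalling tail that binds JAK1, had levels of 1.47, 1.21, 1.10 and 0.89 in the YF and of 0.93, 1.32, 1.02 and 1.90 in the OF, in the same order of animals. The value of OF 2258 stood above all other arrays, and the remaining 3 OF lay within the range of YF. The difference was 0.13 (SE 0.24, 95% interval -0.42 to 0.67), and without OF 2258 it was -0.08. Both chains were highest in OF 2258, the biopsy with the highest smooth muscle level (4.04) and the lowest epithelial level (-1.88). OF 0234, with the second highest smooth muscle level (2.45), had 1.32 for IFNAR2 and -5.08 for IFNAR1, within the range of YF in both. The part of smooth muscle in these values was not tested. In the 3 contemporary cows, IFNAR1 ranged from -4.94 to -4.64 and IFNAR2 from 1.15 to 1.42. The order of the group means was contemporary, OF and YF for IFNAR1, and OF, contemporary and YF for IFNAR2, and no neighbours in either order differed beyond their spread.

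The interferon gamma receptor is made of IFNGR1, which binds the ligand and JAK1, and IFNGR2, which binds JAK2. In the YF, IFNGR1 (ENSBTAT00000016650, chr9:76092204-76116593) had levels of 0.78, 0.33, 0.55 and 0.36. In the OF it had 0.67, 0.69, 0.07 and 0.68. The range of OF was wide because of OF 0245, at 0.07, while the other 3 OF lay between 0.67 and 0.69. The difference between the groups was 0.02 (SE 0.19, 95% interval -0.41 to 0.46), and 0.18 without OF 0245.

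IFNGR2 (ENSBTAT00000017147, chr1:1376827-1397948) had levels of 0.57, 0.32, 0.08 and 0.05 in the YF. In the OF it had 0.20, 0.26, -0.53 and 0.35, again with OF 0245 far below the others. In the contemporary cows 1068, 1128 and 1129 it had -0.48, 0.91 and 0.47, the widest spread of a group for this gene (SD 0.71, n = 3), against 0.40 in OF and 0.24 in YF. The difference of OF from YF was -0.18 (SE 0.23, 95% interval -0.70 to 0.33), and without OF 0245 it was 0.02, with the sign turned.

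Among the kinases, JAK1, which serves both interferon receptors and the receptors of the IL6 family, had the lowest unadjusted p of the 8 genes tested between OF and YF. Its levels were 2.65, 1.99, 2.45 and 2.44 in the YF and 2.30, 2.22, 1.45 and 2.22 in the OF. The difference was -0.34 (SE 0.23, 95% interval -0.87 to 0.20, limma unadjusted p = 0.186, exact two-sided permutation p = 0.257). Without OF 0245 it was -0.14. In FCROS the f-value of JAK1 was 0.0701 and the ratio of the OF to the YF mean 0.802, both inside the bounds for a call.

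JAK2 (ENSBTAT00000015986, chr8:39632638-39719731), the kinase of IFNGR2 and of many cytokine and growth hormone receptors, had levels of -3.00, -3.92, -3.18 and -3.26 in the YF and of -3.24, -3.71, -4.25 and -3.16 in the OF. YF 1070 and OF 0234 joined OF 0245 at the low end, so that the groups were interleaved. The difference was -0.25 (SE 0.29, 95% interval -0.92 to 0.42), and -0.03 without OF 0245. TYK2, the kinase of IFNAR1, had 0.64, 0.30, 0.53 and 0.09 in the YF and 0.28, 0.53, -0.30 and 0.65 in the OF. Its difference was -0.10 (SE 0.23, 95% interval -0.64 to 0.43), and 0.09 without OF 0245.

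The STAT genes differed in whether they could be measured. STAT2 (ENSBTAT00000005749, chr5:57318819-57333404), which acts with IRF9 in the ISGF3 complex downstream of IFNAR, was near background: each of its probes was well above background on 1 of the 12 arrays, probe 1 on OF 0234 and probe 2 on YF 1127. No fold is given for it, and it entered no limma test. STAT3 (ENSBTAT00000028687, chr19:43056660-43132624), which in endometrium relays signals of LIF and other IL6 family cytokines, was well above background on all arrays. Its levels were -1.55, -0.98, -0.99 and -1.12 in the YF and -0.52, -1.12, -0.99 and -1.15 in the OF. OF 0233 was the highest and YF 1069 the lowest of the 11 arrays compared, and the other 6 clones lay between -1.15 and -0.98. The difference was 0.22 (SE 0.20, 95% interval -0.24 to 0.68), and it was 0.08 without OF 0233 and 0.09 without YF 1069. STAT3 of cow 1111, at -0.29, was above all 11 arrays compared.

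**Figure D2:**
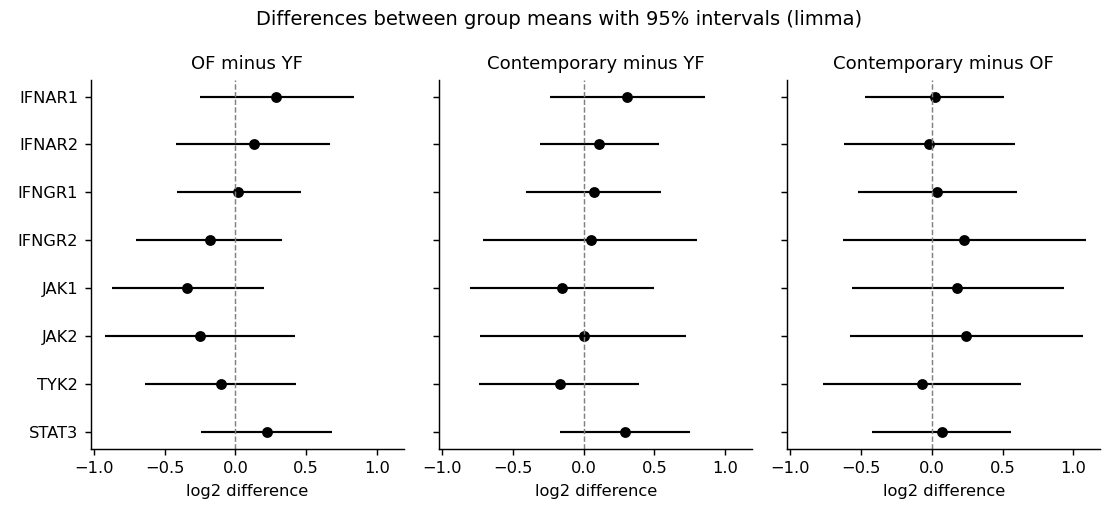
Differences between group means in log2 units (horizontal axis) with 95% intervals from limma for the 8 genes that could be tested, in OF minus YF, contemporary minus YF and contemporary minus OF. Every interval includes 0 (dashed line), and the widest are those of IFNGR2 and JAK2 in contemporary minus OF.

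The contemporary cows were set against YF, then against OF. These comparisons share their samples with each other and with that of OF and YF. Against YF, limma called 0 of 19993 transcripts (0.0%), 606 (3.03%) at an unadjusted p of 0.05, and the groups did not overlap for 3.83%. Against OF it called 0 of 19914 (0.0%), 911 (4.57%) at an unadjusted p of 0.05, and the groups did not overlap for 5.79%. None of the 8 genes was called, or reached an unadjusted p of 0.05, in either comparison, and all 8 overlapped in both. The largest difference from YF was that of IFNAR1, 0.31 (SE 0.24, 95% interval -0.24 to 0.86), followed by STAT3, 0.29 (SE 0.20, 95% interval -0.17 to 0.75). The value of IFNAR1 was 0.13 without YF 1127 and 0.60 with the slide as a block. That of STAT3 was 0.16 without YF 1069, and its 2 probes gave 0.51 and 0.07. STAT3 was -1.05, -0.90 and -0.67 in contemporary cows 1068, 1128 and 1129, and 2 of these 3 were above all 4 YF (exact two-sided permutation p = 0.171, where 3 animals against 4 cannot go below 0.0571). The largest differences from OF were JAK2, 0.24 (SE 0.35), and IFNGR2, 0.23 (SE 0.37). The value of JAK2 was 0.03 without OF 0245 and 0.02 without contemporary cow 1129, and that of IFNGR2 was -0.07 without contemporary cow 1128. Without contemporary cow 1068, the differences from YF turned sign for JAK1 (0.16 against -0.15) and TYK2 (0.06 against -0.17). In the same setting JAK2 differed by 0.30 against 0.00, and IFNGR2 by 0.44 against 0.05, a value that was -0.26 without cow 1128.

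IFNGR1, IFNGR2, JAK1, JAK2 and TYK2 were low in the same 2 animals, OF 0245 and contemporary cow 1068, which belong to different groups and lay on different slides. In each of the 5 genes these were the lowest 2 of the 11 arrays. Relative to the median of the other 9 arrays, OF 0245 was lower by 0.61 in IFNGR1, 0.84 in IFNGR2, 0.99 in JAK1, 1.06 in JAK2 and 0.83 in TYK2. Contemporary cow 1068 was lower by 0.48, 0.80, 0.83, 0.77 and 0.78 in the same order. The other 3 genes well above background did not take part. The deviations of OF 0245 and of cow 1068 were 0.11 and 0.18 for IFNAR1, -0.20 and 0.21 for IFNAR2, and 0.01 and -0.06 for STAT3.

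This low pair was noticed in the data, and it has no test. Among all 18766 transcripts well above background on the 11 arrays, 1396 (7.44%) had these 2 arrays as their lowest, which is the second most frequent of the 55 possible pairs after YF 1069 with OF 2258 (9.28%). The 5 genes of 8 are therefore set beside a background in which the pair is frequent. The 75th percentile of the intensity was 1179.0 in OF 0245 and 1030.1 in cow 1068, with 71.6% and 72.9% of probes well above background, against 71.8% to 74.9% in the other 9 arrays. The smooth muscle, epithelial and stromal levels were -0.21, 0.88 and -0.52 in OF 0245 and -0.34, -0.30 and 0.11 in cow 1068. The endothelial level of cow 1068, 0.77, was the highest of the 11. Their part in the low values was not tested.

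**Figure D3:**
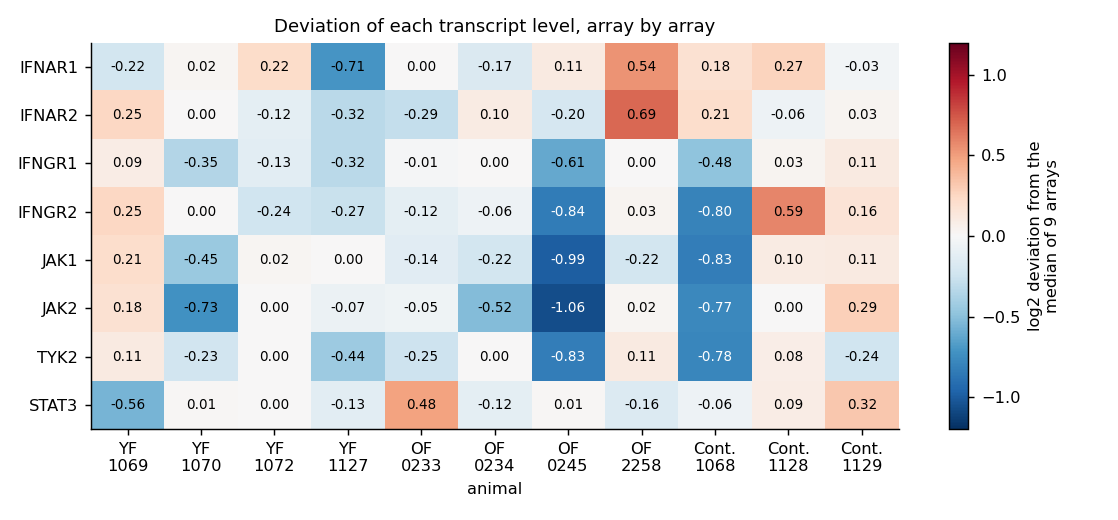
Deviation of the log2 level of 8 genes (rows) from the median of 9 arrays (all but OF 0245 and contemporary cow 1068) in each of the 11 animals compared (columns), with blue for lower and red for higher. The columns of OF 0245 and cow 1068 are between -1.06 and -0.48 in IFNGR1, IFNGR2, JAK1, JAK2 and TYK2 and between -0.20 and 0.21 in IFNAR1, IFNAR2 and STAT3.

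The probes of JAK1 and TYK2 gave different accounts of these 2 animals. JAK1 probe 1, which holds AATAAA, was 3.07 in OF 0245 and 3.37 in cow 1068, within the range of 2.91 to 3.43 of the other 9 arrays. JAK1 probe 2, which does not hold it, was -0.18 and -0.16, against 0.98 to 2.09 in the other 9. TYK2 repeated the pattern with other sequences. TYK2 probe 2, which holds AATAAA, was 1.74 and 2.13 in the 2 animals, within the range of 1.52 to 2.24 of the others. TYK2 probe 1, which does not, was -2.35 and -2.63, against -1.33 to -0.68.

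The gap between the 2 JAK1 probes was therefore shifted from its median over the 11 arrays by 1.83 in OF 0245 and 2.10 in cow 1068, and only 0.0873% and 0.0940% of the 14887 transcripts with 2 measurable probe sequences had a larger shift on those arrays. For TYK2 the shifts were 1.29 and 1.96, with 0.578% and 0.134% of transcripts beyond them. Over the 11 arrays the 2 probes of a gene had r = -0.16 in JAK1 and -0.05 in TYK2, as a description. In contrast, both probes of IFNGR2 were low in the 2 animals, with r = 0.92 between them. JAK2 probe 1 was also below the other 9 arrays in both. JAK2 probe 2 was the lowest in OF 0245, at -3.42, but at -3.09 in cow 1068 it lay within the range of -3.28 to -2.21 of the other 9 (r = 0.93 between the probes). The 2 probes of IFNGR1 share 53 bases and those of IFNAR1 58, so each of those pairs is close to a repeat of 1 measurement, while those of JAK1 and TYK2 share none. The repeat was close for IFNGR1 (r = 0.99) and looser for IFNAR1 (r = 0.71). The difference of OF from YF in IFNAR1 was 0.40 by probe 1 and 0.19 by probe 2.

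Measured by the probe with AATAAA alone, the difference of OF from YF was -0.18 in JAK1 and -0.03 in TYK2, and by the other probe it was -0.50 and -0.18. Over the array there were 2198 transcripts with 1 measurable probe that holds AATAAA and 1 that does not. The probe without it had a median shift between -0.06, in cow 1068, and 0.05 on the 12 arrays. No array had a general shift of the size seen in JAK1 and TYK2. A shift below -1 was seen in 15 transcripts (0.682%) of OF 0245 and 41 (1.87%) of cow 1068, against 0 to 22 in each of the other arrays. Only 8 transcripts had it in these 2 animals and in none of the other 9, and JAK1 and TYK2 were 2 of the 8. Whatever their sequence, the 2 probes of a transcript parted more often in these animals than on most arrays. The gap was shifted by over 1 in 1.29% of 14887 transcripts in OF 0245 and in 2.0% in cow 1068. The share was 2.2% in OF 2258 and between 0.275% and 0.914% on the remaining arrays. The cause of the gap was not tested.

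**Figure D4:**
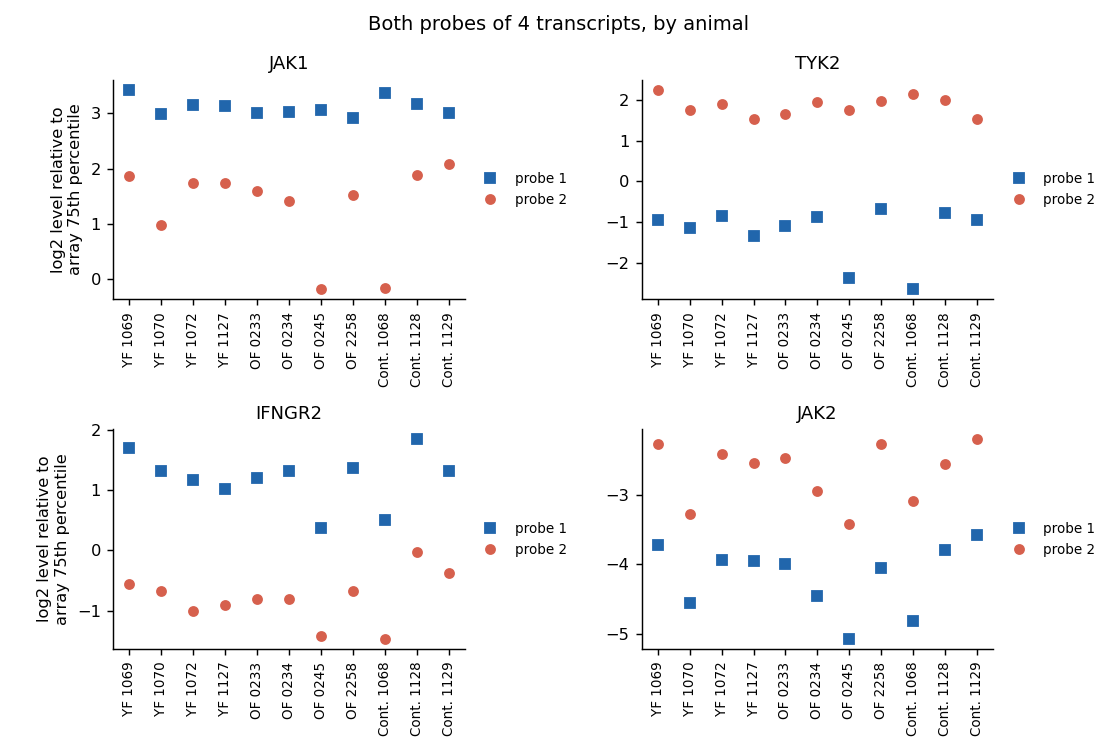
Log2 level of probe 1 (blue squares) and probe 2 (red circles) of JAK1, TYK2, IFNGR2 and JAK2 in each of the 11 animals compared. The vertical distance between probes has no meaning as such; JAK1 probe 2 and TYK2 probe 1 fall in OF 0245 and contemporary cow 1068 while the other probe of the gene stays in the range of the other 9 arrays, and in IFNGR2 both probes are low. In JAK2 probe 1 is low in both animals, and probe 2 is the lowest in OF 0245 and within the range of the other 9 arrays in cow 1068.

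Partners of a receptor or complex were compared across the 11 arrays in 8 pairs, with Pearson's r, Spearman's rho and permutation p adjusted over the 8. IFNGR1 and IFNGR2 were correlated (r = 0.84, permutation p = 0.00084, adjusted p = 0.00672; rho = 0.85, adjusted p = 0.0122). The relation was 0.55 without OF 0245 and cow 1068, the 2 arrays farthest from the median (adjusted p = 0.322 by permutation over the remaining 9 arrays), so it rests in part on them. Within the 8 arrays of OF and YF, r was 0.83 (adjusted permutation p = 0.0828). A value of this size was not particular to the receptor pair. Among pairs not tested, r was 0.86 for IFNGR1 with TYK2, 0.86 for IFNGR2 with TYK2 and 0.85 for IFNGR1 with JAK1. Without OF 0245 and cow 1068 these were 0.58, 0.52 and 0.54. IFNGR2 and JAK2 had r = 0.71 (permutation p = 0.0139, adjusted p = 0.0557; rho = 0.72, adjusted p = 0.0624), and 0.26 without the same 2 arrays.

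The type I pair behaved otherwise. IFNAR1 and IFNAR2 had r = 0.54 (permutation p = 0.0940, adjusted p = 0.251) and rho = 0.21 (adjusted p = 0.719), and r was -0.40 without OF 2258 and YF 1127, so the positive value rests on those 2 arrays. IFNAR1 and its kinase TYK2 had r = 0.17 (adjusted permutation p = 0.815), which was 0.65 over the 9 arrays without OF 0245 and cow 1068 (permutation p = 0.0521, adjusted p = 0.322). IFNAR2 and its kinase JAK1 had r = 0.00 (adjusted permutation p = 0.999). For STAT3 no relation was called with IL6ST, the shared receptor chain of the IL6 family (r = -0.29, rho = -0.32, adjusted permutation p of r = 0.635), or with SOCS3, an inhibitor that STAT3 induces (r = -0.07, rho = 0.00, adjusted permutation p of r = 0.950). STAT2 and its partner IRF9 had r = -0.28, with STAT2 measurable on only 2 of these arrays, so that no relation could be read. As a description without a test, the highest correlation among the members was that of JAK1 with JAK2, r = 0.93 over 11 arrays and 0.85 over the 9 others. The JAK1 and TYK2 levels in these pairs average 2 probes that did not move together (r = -0.16 and -0.05). The spread of JAK1 was mainly that of probe 2 (SD in OF 0.85, against 0.07 for probe 1). Neither JAK1 probe was set against JAK2 on its own.

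**Figure D5:**
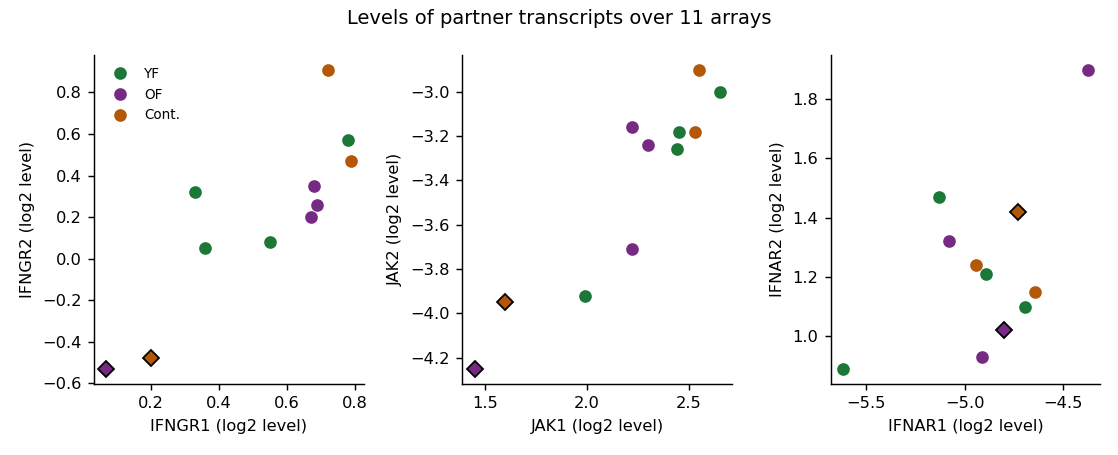
Log2 levels of IFNGR2 against IFNGR1, JAK2 against JAK1 and IFNAR2 against IFNAR1 over the 11 arrays compared, 1 point per animal, coloured by group, with black-edged diamonds for OF 0245 and contemporary cow 1068. The diamonds sit at the low end of the first 2 panels (r = 0.84 and 0.93) and inside the cloud of the last (r = 0.54). The JAK1 level is the average of 2 probes that did not move together (r = -0.16).

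The transcripts most like each gene over the 11 arrays were sought among 16504 named transcripts well above background on all of them, and the highest correlations are a description of arrays that share their scaling, 2 slides and a mixed tissue. IFNAR2 was followed most closely by PDE1A (r = 0.978) and DEGS1 (r = 0.977), IFNAR1 by CDH6 (r = 0.932) and FLOT2 (r = 0.922). JAK1 was followed by PHF20 (r = 0.972) and ZKSCAN7 (r = 0.970), JAK2 by KDM6A and PARG (both r = 0.960), and TYK2 by ZNF573 (r = 0.955) and ATG10 (r = 0.946). For IFNGR1 they were KIAA1731 (r = 0.948) and ACAP2 (r = 0.926), and for IFNGR2 ASAP1 (r = 0.949) and CNN3 (r = 0.914). Without OF 0245 and cow 1068 the correlations of these 10 partners of IFNGR1, IFNGR2, JAK1, JAK2 and TYK2 were between 0.76 and 0.94. For STAT3 they were SOX15 (r = 0.876) and SNX8 (r = 0.873), and for STAT2, near background, the partners are not named. The partners of JAK1 and TYK2 follow the average of 2 probes that did not move together (r = -0.16 and -0.05). Their relation to each probe alone was not analysed.

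The rest of the pathway was counted from lists. Of the type III and shared receptor chains, IFNLR1, the specific chain of the interferon lambda receptor, had levels of -6.89, -6.53, -5.81 and -6.98 in the OF and of -6.76, -7.27, -7.39 and -7.58 in the YF. It entered the fit through the OF, where its probes were well above background on 4 of 4 arrays, against 2 of 4 in YF, so no test is read from it. IL10RB, the chain that interferon lambda shares with IL10, differed by -0.07. The 6 other JAK and STAT genes had 2 higher and 4 lower in OF with a median of -0.08 (0.03 without YF 1069), and IRF9, the DNA-binding partner in ISGF3, differed by -0.06 (SE 0.23), or 0.14 without YF 1070. IRF9 was 2.64, 3.40, 2.90 and 2.28 in the YF, a wider range than the 2.57 to 2.84 of the OF.

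Of 18 inhibitors (SOCS, PIAS and phosphatase genes and others), 11 were higher and 7 lower in OF with a median of 0.11 (0.03 without YF 1127), and none reached an unadjusted p of 0.05. The 5 measurable of 6 receptors that signal through STAT3 had a median of -0.12 and the 3 coactivators one of -0.02. The first was 0.14 without OF 0245 and the second 0.06 without YF 1069, so neither sign was kept. Of 26 ISG, the readout of the pathway, 22 were tested: 5 were higher and 17 lower in OF, with a median of -0.35, and none of them was called or reached an unadjusted p of 0.05. The median was -0.17 without YF 1070 and -0.56 without YF 1127. Their mean relative to the 11 arrays was -0.06, 0.76, 0.28 and -0.47 in YF 1069, 1070, 1072 and 1127 and 0.06, -0.27, -0.06 and -0.49 in OF 0233, 0234, 0245 and 2258. The ISG were highest in YF 1070, the YF with the lowest JAK1, JAK2 and IFNGR1. Among the YF they were lowest in YF 1127, the YF with the lowest IFNAR1, IFNAR2, IFNGR2 and TYK2. A relation of the ISG level to the levels of these genes was not tested. In OF 0245 and cow 1068, where the averaged levels of 5 of the 9 genes were lowest, the ISG level was -0.06 and -0.13, inside the range of the other arrays. For JAK1 and TYK2, 2 of these 5, only the probe without AATAAA was low, and the other probe lay within the range of the other arrays. Against OF, the contemporary cows had 19 of 23 ISG higher with a median of 0.24, and RSAD2, an antiviral ISG, differed by 0.48 with no overlap (SE 0.19, limma unadjusted p = 0.0396, adjusted p = 0.912), where 5.79% of all transcripts did not overlap. In these cows RSAD2 lay between -2.15 and -1.98, and in the OF between -2.89 and -2.27. Against YF the inhibitor PIAS2 was the only gene tested from the pathway lists without overlap. It differed by -0.29 (SE 0.15, limma unadjusted p = 0.0826, adjusted p = 1.0), where 3.83% of all transcripts did not overlap. The member STAT2, near background and in no limma test, was also lower in contemporary cows than in YF without overlap, and nothing is read from it.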

How the data were processed

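For each of 12 arrays the authors deposited the Cy3 intensity of every spot, as read by Agilent Feature Extraction 10.7.3.1, background-subtracted and not normalized between arrays (1 animal per array, 1 colour, total RNA). Depth does not apply to intensities, and the number of arrays limits the precision. The deposited intensity was put on the log2 scale relative to its array's 75th percentile. Control spots were dropped, as were 66 probes flagged as outliers on at least 1 array, spots of a probe and then probes of a transcript were averaged, and 26323 transcripts were left from 61333 probes. Symbols came from RefSeq accessions, then from the array annotation (UMD3.1).

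Groups followed the labels. OF, YF and contemporary cows were compared in pairs with limma 3.58.1 (R 4.3.3; lmFit, eBayes, two-sided, Benjamini-Hochberg at 0.05) on transcripts that a probe measured above background throughout at least 1 of the groups compared, with only those arrays in the fit. Exact two-sided permutation tests over animals were run for the members. FCROS was coded from its description (trim 0.25, f of 0.025 and 0.975, fold 1.5). Correlations used 100000 permutations in numpy 2.4.6. In simulated data, 200 transcripts were changed by a known amount, much larger than any difference of the members. The limma fit recovered 76.5% of them between OF and YF, 77.5% between contemporary cows and YF and 61.5% between contemporary cows and OF. These shares do not give the power for differences as small as those of the members.

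All 9 members are named, other pathway genes where limma gave an unadjusted p of 0.05 or less, where the groups did not overlap, or as partners in the 8 pairs, and the 2 transcripts most like each member by r (not for STAT2, which was near background). Lists of epithelial, glandular, stromal, smooth muscle, endothelial, leukocyte and steroid receptor genes were read besides. The members and lists were chosen with earlier results of these data known, and the 2 low arrays were noticed in these data. Replicates are separate animals. Some genes are not reported here. Alternatives were quantile normalization, median centring, normexp (offset 50), the brightest probe, each probe alone, other filters on dim probes, the slide as a block or within slides, 1 fit of all groups, array weights, cow 1111 included, other FCROS settings, and each animal left out.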

Additional observations from a re-analysis of the deposited data

Results flagged for a closer look

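Among OF, the value of OF 0245 lay far from the nearest of the other 3 for 3 genes. IFNGR1 was 0.07 in OF 0245 and 0.67 in the nearest OF, a gap of 0.983 of the range of the group. IFNGR2 was -0.53 against 0.20, a gap of 0.833 of the range, and JAK1 was 1.45 against 2.22, a gap of 0.903. The critical value for 4 samples is 0.829, and IFNGR2 passes it narrowly. A total of 16 groups (8 genes in OF and in YF) were examined, and chance flags about 5% of groups. The 3 values come from 1 array and are not independent of each other. Only JAK1 among the 3 has 2 probes that part in this animal. What set OF 0245 apart was not tested.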

How the results depend on the processing

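None of the 24 member differences (8 genes, 3 comparisons) passed an adjusted p of 0.05 in limma under any alternative with a test (smallest adjusted p 0.362), so a turned sign here is that of a difference within its own error. No paired analysis was possible because the groups share no replicate numbers. The 2 low arrays were left out together, and the probe with AATAAA read alone, after the data were seen. In OF minus YF the sign turned with array weights for IFNAR1 (-0.07) and TYK2 (0.06), with the slide as a block for IFNGR1 (-0.06), and without both low arrays for IFNGR2 (0.02) and TYK2 (0.09). Within slide 1 the values moved by more than the spread of a group, to -0.37 for IFNGR1, -0.72 for IFNGR2, -0.77 for JAK1 and -0.72 for TYK2. In contemporary minus YF it turned without both low arrays for JAK1 (0.16), JAK2 (0.30) and TYK2 (0.06), with array weights for JAK1 (0.11), JAK2 (0.21) and TYK2 (0.03), with the brightest probe for IFNGR2 (-0.07), JAK1 (0.01), JAK2 (0.06) and TYK2 (0.03), with the slide as a block for IFNGR2 (-0.01), and for JAK2 with median centring (0.04), normexp (0.03) and quantile normalization (0.03). In contemporary minus OF it turned for IFNAR1 without both low arrays (0.00 after rounding) and with normexp (-0.10), for IFNAR2 with median centring (0.01), with the slide as a block for IFNGR1 (-0.11) and JAK1 (-0.02), and for TYK2 with array weights (0.03) and the brightest probe (0.06).

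With each animal left out, OF minus YF kept its sign for IFNAR1 (0.11 to 0.42) and STAT3 (0.08 to 0.29). The same held for JAK1 (-0.47 to -0.14) and JAK2 (-0.44 to -0.03). The range was -0.08 to 0.25 for IFNAR2 and -0.03 to 0.18 for IFNGR1. That of IFNGR2 was -0.27 to 0.02 and that of TYK2 -0.22 to 0.09. Contemporary minus YF ranged from -0.05 to 0.25 for IFNGR1, -0.26 to 0.44 for IFNGR2, -0.31 to 0.16 for JAK1, -0.23 to 0.30 for JAK2 and -0.37 to 0.06 for TYK2. In that comparison IFNAR1 (0.13 to 0.44), IFNAR2 (0.02 to 0.21) and STAT3 (0.16 to 0.38) kept their sign. Contemporary minus OF ranged from -0.08 to 0.16 for IFNAR1, -0.14 to 0.19 for IFNAR2, -0.11 to 0.23 for IFNGR1, -0.07 to 0.62 for IFNGR2, -0.02 to 0.50 for JAK1, -0.27 to 0.16 for TYK2 and -0.03 to 0.21 for STAT3. Only JAK2 (0.02 to 0.55) kept its sign against OF. The correlation of IFNGR1 with IFNGR2 lost its call within OF and YF (r = 0.83) and without the 2 low arrays (r = 0.55), and that of IFNAR2 with JAK1 turned to -0.13 without them.

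Between OF and YF, limma called 0 transcripts under every alternative. Against YF it called in contemporary cows 4 with cow 1111 included, 2 with all groups in 1 fit, 1 with array weights, 1 with quantile normalization, 1 without both low arrays and 0 to 1 with an animal left out. Against OF it called 26 with array weights, 2 with cow 1111 and 0 to 1 with an animal left out. FCROS called 565 transcripts at a fold of 2, against 1300. The cause of these changes was not tested. STAT2, near background, was left out of this account.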

Other observations

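Cell type genes beyond the interferon pathway were read in the same fits. In OF against YF, all 8 smooth muscle genes measured were higher with a median of 2.02, and TAGLN, a calponin-related protein of smooth muscle, differed by 2.45 (SE 1.04, limma unadjusted p = 0.0438, adjusted p = 0.999). The groups overlapped for each of the 8. Their average was high in OF 2258 (4.04) and OF 0234 (2.45). In OF 0233 (-1.07) and OF 0245 (-0.21) it lay within the range of YF (-1.52 to 0.05). The 5 stromal genes were all lower with a median of -0.26, the 6 epithelial genes had 5 lower with a median of -0.19, the 5 endothelial genes had 4 higher with a median of 0.22, and the 8 leukocyte genes measured had a median of 0.05. The epithelial average was -1.88 in OF 2258 and between -0.14 and 0.88 in the other OF. FOXA2, the gland factor, differed by 0.02, and the steroid receptors PGR and ESR1 had a median of 0.16. None of these lists held a transcript called at an adjusted p of 0.05. Contemporary cows lay above OF without overlap for TEK, an endothelial receptor kinase (0.71, SE 0.22), and for CD14, a monocyte and macrophage receptor (0.44, SE 0.17), neither of them called. These were 1 of 5 endothelial and 1 of 8 leukocyte genes, where 5.79% of all transcripts did not overlap. Against YF the 5 endothelial genes were also all higher in contemporary cows, 1 of them without overlap, where the share of all transcripts was 3.83%.

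The 6 other transcripts whose probe without AATAAA was low in OF 0245 and contemporary cow 1068 and in none of the other 9 arrays were BLCAP, HSD17B4, MAOB, ZBED5, ZBTB9 and a transcript without a symbol (ENSBTAT00000019184), singled out after their values were seen. Their shifts ranged from -1.62 to -1.05 in OF 0245 and from -2.12 to -1.34 in cow 1068.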
